A study of Mus musculus with 23 samples.

Results

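The comparison described here sets distal forelimbs of mouse embryos carrying an engineered inversion and a deleted CTCF site (Inv1DelCTCF) against distal forelimbs carrying the inversion alone (Inv1). Its members were taken by 1 rule, every row of the authors' genome-wide table for this pair, which gave 34682 genes of the 34682 in the series. It rests on 5 of the 23 libraries, 3 of Inv1 and 2 of Inv1DelCTCF, all from embryos at stage E11.5. Per the series description, the mutants were made with CRISPR/Cas9 and the inversions bring an enhancer cluster from the chromatin domain of Epha4 into a stretch of many genes. Both groups compared here therefore carry inversion 1, and by its name only Inv1DelCTCF also lacks a CTCF site. Which CTCF site was removed, the zygosity of the alleles and the number of clones behind each line are not given in the sources used here. The replicates are biological ones per the series description, though nothing says that they came from separate litters, so the p-values speak only for the spread among these samples. The labels name G4 embryonic stem cells as the cell type of every sample, embryos included, and do not say how the embryos were derived from them or whether host cells were present.

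CTCF is a zinc finger protein that binds a long DNA motif and halts the cohesin ring as it extrudes chromatin loops, and arrays of its sites mark the borders of many topologically associating domains. Enhancers tend to contact promoters within their own domain, so the removal of a border site can change which genes an enhancer reaches. In the limb bud the Epha4 domain holds enhancers active in distal mesenchyme, and the receptor Epha4 takes part in cell sorting and axon guidance.

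The inversion raises a run of adjacent genes, Tuba4a, Dnajb2, Ptprn, Resp18 and Dnpep, and the deletion was laid on top of it, so the promoters of 4 of them are shown. They are RefSeq sequences of build GRCm38.p6, 300 bases each from 250 before to 50 after the first start listed for the gene, read 5′ to 3′ on the gene's own strand. Capitals mark each match to AGNNGGC, a 7-base stretch of the core of the CTCF motif, or to its reverse complement GCCNNCT, with overlapping matches allowed. The intervals are chr1:75219245-75219544 on the minus strand for Tuba4a, chr1:75236173-75236472 on the plus strand for Dnajb2, chr1:75264159-75264458 on the minus strand for Ptprn and chr1:75317588-75317887 on the minus strand for Dnpep.
Tuba4a: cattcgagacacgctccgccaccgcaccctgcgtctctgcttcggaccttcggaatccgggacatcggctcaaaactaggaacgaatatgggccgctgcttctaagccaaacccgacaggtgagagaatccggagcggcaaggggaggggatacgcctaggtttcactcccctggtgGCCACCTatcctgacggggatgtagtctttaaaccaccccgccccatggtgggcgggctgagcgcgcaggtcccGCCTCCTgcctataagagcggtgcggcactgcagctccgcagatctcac
Dnajb2: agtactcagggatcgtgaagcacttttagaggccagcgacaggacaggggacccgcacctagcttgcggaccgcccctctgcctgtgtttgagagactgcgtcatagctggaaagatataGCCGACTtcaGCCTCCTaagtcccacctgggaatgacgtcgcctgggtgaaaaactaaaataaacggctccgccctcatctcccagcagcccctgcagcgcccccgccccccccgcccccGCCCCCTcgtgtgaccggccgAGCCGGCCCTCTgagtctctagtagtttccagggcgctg
Ptprn: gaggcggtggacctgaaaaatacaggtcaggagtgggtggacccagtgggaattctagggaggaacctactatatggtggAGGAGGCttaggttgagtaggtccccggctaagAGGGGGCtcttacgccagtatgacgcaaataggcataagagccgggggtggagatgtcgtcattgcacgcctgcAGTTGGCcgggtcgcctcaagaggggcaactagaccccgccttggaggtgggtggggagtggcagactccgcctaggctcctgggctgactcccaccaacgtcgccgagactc
Dnpep: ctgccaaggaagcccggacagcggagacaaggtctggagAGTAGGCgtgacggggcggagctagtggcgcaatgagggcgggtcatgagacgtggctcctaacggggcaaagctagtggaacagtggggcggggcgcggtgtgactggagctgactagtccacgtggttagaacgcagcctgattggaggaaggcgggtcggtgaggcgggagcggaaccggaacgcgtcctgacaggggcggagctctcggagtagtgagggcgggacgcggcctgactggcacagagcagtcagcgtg
Tuba4a held 2 matches, both to the reverse complement, Ptprn 3 in the forward direction, Dnpep 1 in the forward direction, and Dnajb2 1 forward and 4 reverse. At least 1 match stood in 59.8% of the 32851 promoters of the same length, so a match here only describes letters. Binding by CTCF was not tested. The 4 promoters held 60.3% to 65.7% G and C.

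The values are the authors' own comparison, with no value per library, which means that sequencing depth is unknown and that replicate spread is seen only in the standard error (SE) of each fold change. A level below is a mean normalised count of a group, rebuilt from the mean over both groups, the fold change and the numbers of libraries. A log2 change is that of Inv1DelCTCF over Inv1. The table does not state which group is the numerator. The sign was settled by setting the Inv1 level of 49 genes, rebuilt from the tables against wild type, against that rebuilt from this table. The median offset on the log2 scale, -0.137 with the sign used here and -0.172 with it reversed, was subtracted first. The median absolute residual was then 0.0124 with the sign used here and 0.107 with it reversed. Ptprn taken alone gave residuals of 0.37 and -0.24, nearer the reversed sign. The fold changes against wild type used in that step appear to be shrunken toward 0, which affects the rebuilt levels. A gene counts as called where its deposited adjusted p lay under 0.05.

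Among the 11218 genes with an adjusted p, 427 rose in Inv1DelCTCF, which is 3.81%, and 885 fell, which is 7.89%, together 11.7%. Most changes were small. The median log2 change was 0.31 over the genes that rose and -0.30 over those that fell, and 3 rose and 1 fell by at least 1 on the log2 scale. Of the other rows, 12741 had a mean of 0, 10722 had a p-value but no adjusted p, all with a mean under 113, and 1, Afp, had neither. The labelled tissue carried its markers. Hoxd13, Prrx1, Tbx5 and Lhx9, which mark distal and forelimb mesenchyme, had levels in Inv1 of 18981, 25638, 7155 and 8684 and in Inv1DelCTCF of 19634, 26274, 7449 and 8727, while the hindlimb gene Pitx1 had levels of 25.6 and 9.54. None of these 5 was called, and for Pitx1 no adjusted p was given. Other distal mesenchyme markers had lower values. Hoxa13 fell from 1480 to 1202 and was called (authors' deposited table: adjusted p = 0.033). Msx1 had levels of 639.9 and 322 and was not called (authors' deposited table: adjusted p = 0.103).

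**Figure D1:**
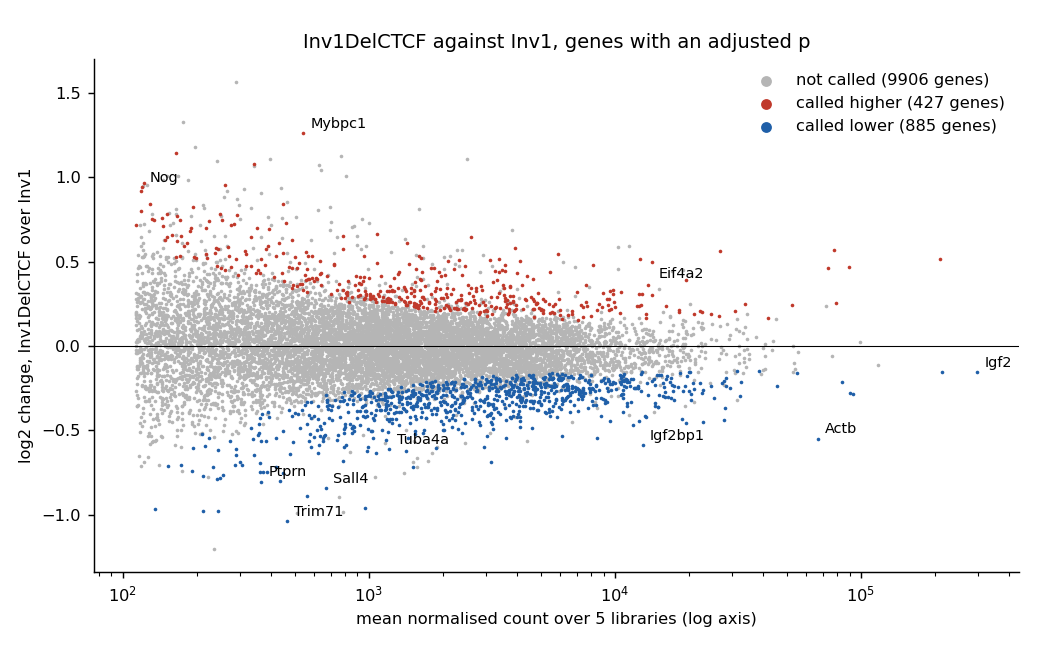
Each point is a gene with an adjusted p, placed by its mean normalised count over 5 libraries (log axis) and its log2 change of Inv1DelCTCF over Inv1. Red points are the 427 genes called higher and blue points the 885 called lower, and most lie within 0.5 of 0 on the log2 scale.

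The share of genes called moved with the base composition of the transcript, and this stands beside every group of genes below. Over 10 bins of 1094 genes each, 11.3% rose and 0.64% fell in the bin with the least G and C, and 0.27% rose and 24.4% fell in the bin with the most. The median log2 change ran from 0.12 in the first bin to -0.19 in the last. After a smooth trend with GC content and transcript length was subtracted, 195 of the 10940 genes with known composition were called higher, which is 1.78%, and 217 lower, which is 1.98%. Of these 412 genes, 320 were also called in the authors' deposited table and 92 were not. Values with the trend subtracted are named GC-adjusted. The part of this trend in each result was not tested, and subtraction also removes any other difference that follows composition.

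**Figure D2:**
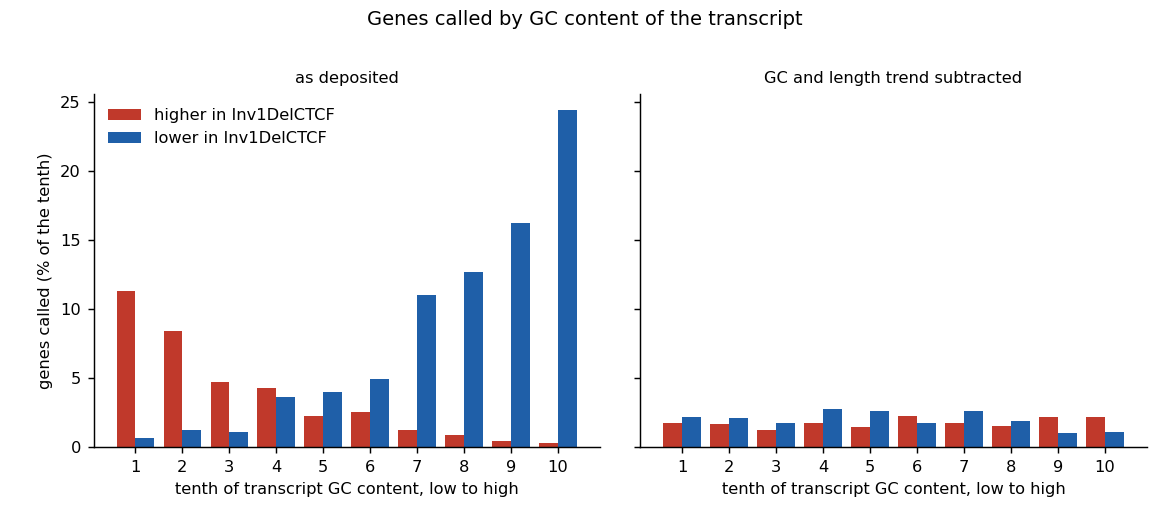
Bars give the percentage of genes called higher (red) or lower (blue) in Inv1DelCTCF within each of 10 bins of transcript GC content, 1094 genes each, as deposited on the left and with the trend subtracted on the right. Deposited calls of lower genes climb from 0.64% to 24.4%, and the shares on the right lie between 1.01% and 2.74%.

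At the inversion itself, the genes called higher in Inv1 over wild type were Tuba4a, Dnajb2, Ptprn, Resp18, Dnpep and Fam134a. Of these, 3 were called lower when the CTCF site was also deleted, beside 7.89% of all genes. All were chosen as high in the same 3 Inv1 libraries used here, and that choice by itself favours lower values in Inv1DelCTCF. Ptprn, a dense-core vesicle member of the receptor-type phosphatase family, had levels of 441 in Inv1 and 253 in Inv1DelCTCF. The deletion line thus held 0.573 of the Inv1 level (95% interval from 0.439 to 0.747). Tuba4a, an alpha-tubulin gene, had levels of 1407 and 921, or 0.654 of Inv1 (0.567 to 0.755). Dnpep, an aspartyl aminopeptidase, had levels of 3092 and 2472, or 0.799 of Inv1 (0.717 to 0.892). By p-value Tuba4a stood at position 30 among the 11218 genes, Ptprn at 263 and Dnpep at 294. GC-adjusted, Tuba4a (-0.55, adjusted p = 5.77e-05) and Ptprn (-0.62, adjusted p = 0.0458) were still called and Dnpep (-0.24, adjusted p = 0.0698) was not.

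The other genes raised by the inversion gave intervals that reach no change or nearly so. Dnajb2 and Resp18 belong to the same run, and Fam134a lies outside it. Dnajb2, a co-chaperone that lies between Tuba4a and Ptprn, had levels of 1805 and 1627, and the interval of its ratio ran from 0.807 to 1.01. Resp18, a neuroendocrine gene, had levels of only 29.3 and 18.2, with an interval from 0.297 to 1.30, and no adjusted p. Fam134a, an endoplasmic reticulum receptor for autophagy and the sixth gene raised by the inversion, had levels of 1912 and 1676 and an interval from 0.773 to 0.993, and was not called (authors' deposited table: adjusted p = 0.165). Set side by side with Inv1 over wild type, where 8.97% of the 78 listed genes were called, the log2 changes in the authors' deposited tables were 3.82 and then -0.80 for Ptprn, 1.84 and -0.61 for Tuba4a, 0.94 and -0.15 for Dnajb2, and 0.56 and -0.32 for Dnpep. Judged from their values, the fold changes against wild type are shrunken toward 0 and those of Inv1DelCTCF over Inv1 are not. Over the locus genes the SE reached at most 0.268 in the first and 4.50 in the second, so the sizes of the changes are not directly comparable. The comparisons also share the 3 Inv1 libraries, and no comparison of Inv1DelCTCF with wild type was used here.

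**Figure D3:**
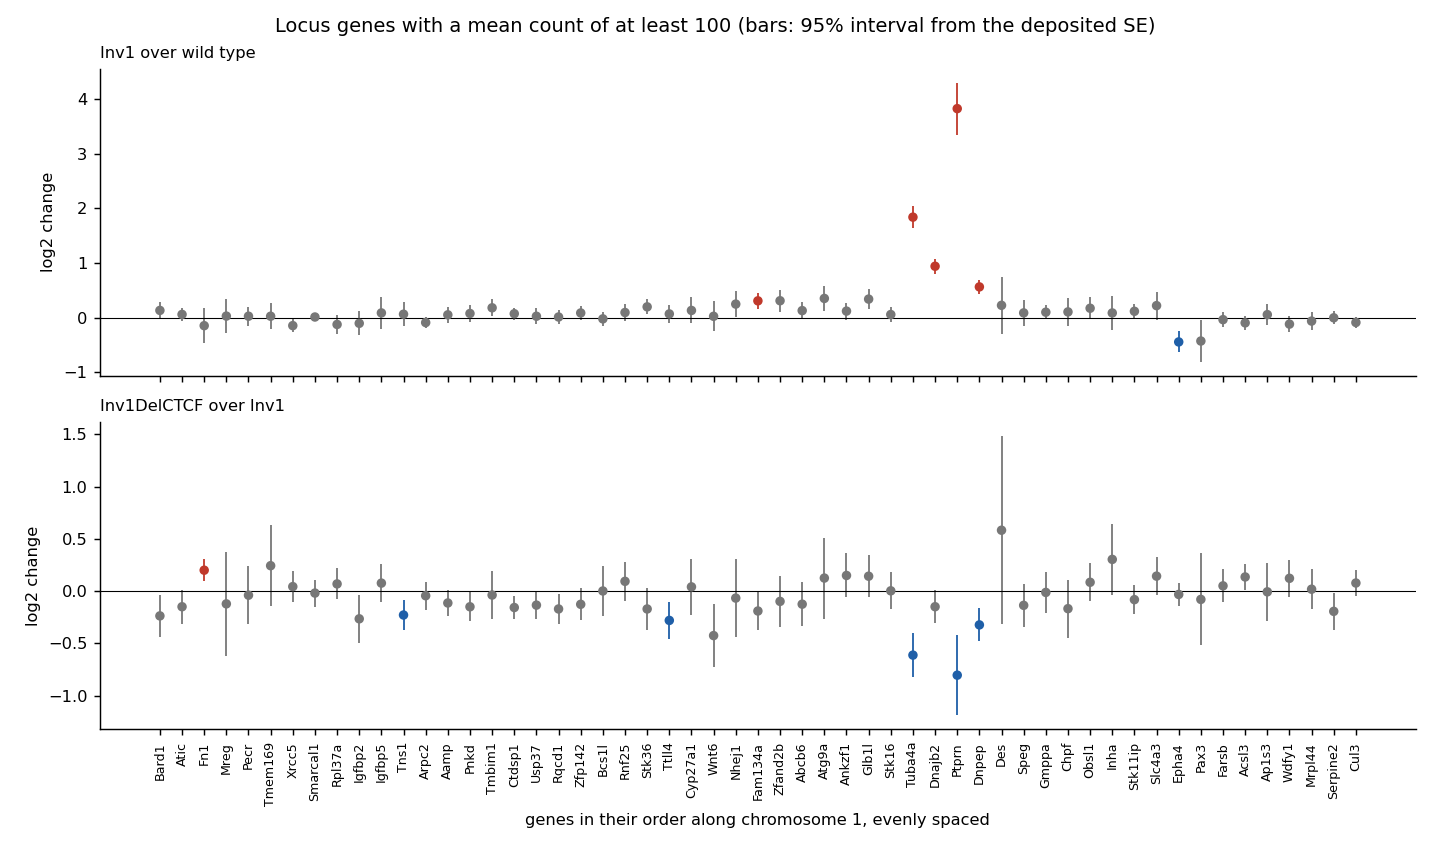
Locus genes with a mean normalised count of at least 100 in their order along chromosome 1, with the log2 change of Inv1 over wild type above and of Inv1DelCTCF over Inv1 below. Bars are 95% intervals from the deposited SE, red marks genes called higher and blue genes called lower, and Tuba4a, Ptprn and Dnpep are red above and blue below. The upper values appear shrunken toward 0 and the lower are not, so heights and intervals do not compare between panels.

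Epha4, the receptor gene whose domain held the enhancer cluster, had levels of 6652 and 6506. The 95% interval of its ratio ran from 0.907 to 1.05 and covered 1. In Inv1 over wild type, Epha4 was called lower (authors' deposited table: log2 change -0.44, SE 0.0977, adjusted p = 0.00739). The Inv1 level used here is thus already a lowered one. Pax3, a regulator of muscle precursors beyond Epha4, had levels of 137 and 129.6 with a wider interval, from 0.697 to 1.28. Wnt6, an ectodermal ligand gene at the other end of the gene-dense stretch, had levels of 655 and 488 and missed the threshold (authors' deposited table: log2 change -0.43, SE 0.155, adjusted p = 0.0509). Ihh, the Indian hedgehog ligand gene, had levels of 10.4 and 19.3 and no adjusted p.

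Across the 79 genes of the locus, 54 had an adjusted p, and 1 rose and 5 fell. That is 11.1%, beside 11.7% of all genes, so the share at the locus was near that of the genome. The other called genes lie centromeric of Wnt6. Fn1, which encodes the matrix protein fibronectin, rose from 21293 to 24459, Ttll4, a polyglutamylase gene, fell from 2729 to 2247, and Tns1, which encodes the adhesion protein tensin, fell from 4515 to 3853. GC-adjusted, Ttll4 (adjusted p = 0.0603) and Tns1 (adjusted p = 0.662) were no longer called, and Obsl1, a cytoskeletal adaptor gene (0.33, adjusted p = 0.0186), and Rpl37a, a ribosomal protein gene (0.23, adjusted p = 0.0498), were called higher beside Fn1. On the gene-dense side 3 of 21 tested genes fell, beside 7.89% of all genes, and 11 of 32 were not tested. On the Epha4 and Pax3 side 0 of 9 were called and 5 of 14 were not tested. In the authors' Wald test 2 of the 9 had an unadjusted p under 0.05, beside 2928 of all 11218 tested genes.

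Lists related by function to the neighbours at the locus were read next. Among tubulin genes, 5 of 11 tested fell, beside 7.89% of all genes, and 10 of 11 had a negative log2 change, with a median of -0.25. Tubb5 fell from 100073 to 82123, Tuba1a from 10829 to 9071 and Tuba1c from 1754 to 1414, though reads of such near-identical genes may be split between copies. GC-adjusted, only Tubb5 of the 5 was called (-0.24, adjusted p = 0.024). Of 14 other dense-core vesicle genes, 3 were tested. Cpe, which encodes the prohormone-trimming carboxypeptidase E, rose from 2661 to 3793 (authors' deposited table: log2 change 0.51, SE 0.132, adjusted p = 0.00352), against the direction of Ptprn. None of 35 tested Dnaj co-chaperone genes was called by the authors' Wald test. An unadjusted p under 0.05 was held by 4, beside 2928 of all 11218 tested genes.

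The genes of the machinery that the deleted site serves gave no call. None of 16 tested CTCF and cohesin genes was called by the authors' Wald test. An unadjusted p under 0.05 was held by 4, beside 2928 of all 11218 tested genes. Ctcf had levels of 7683 and 8060, and Rad21, the cohesin subunit cut to open the ring, 16409 and 16901. Esco2, a cohesin acetyltransferase, was nearest to the threshold, at 1352 and 1598 (authors' deposited table: adjusted p = 0.0691). Receptors and ligands of the Epha4 family fell in 3 of 9 and 2 of 8 tested cases, beside 7.89% of all genes. Ephb4, a receptor of vessels, fell from 9702 to 7790, Ephb2 from 4052 to 3179 and Epha2 from 725 to 482, and the ligand genes Efna1 and Efna2 fell from 1134 to 919 and from 2117 to 1684. None of these 5 was called once GC-adjusted, and their lists have median GC contents of 55.3% and 56.5%.

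Among readouts of fibroblast growth factor (FGF) signalling, the genes called were lower in Inv1DelCTCF. FGFs from the apical ectodermal ridge keep distal mesenchyme growing, and their receptors switch on feedback inhibitors and ETS factors. Of 16 tested FGF readout genes, 6 fell and none rose, beside 7.89% and 3.81% of all genes. Their median log2 change was -0.26, beside -0.01 over all tested genes. The ETS factors Etv4 and Etv5 fell from 2178 to 1432 (log2 change -0.61, SE 0.112, adjusted p = 1.21e-05) and from 4645 to 3332 (-0.48, SE 0.0965, adjusted p = 9.12e-05), values of the authors' deposited table. The inhibitor genes Spry1 and Spry2 fell from 1647 to 1126 and from 2412 to 1954, and Spred2 and Il17rd, which also damp the pathway, fell from 1901 to 1491 and from 6137 to 4796. GC-adjusted, 5 of the list were called lower, Etv4, Etv5, Spred2, Il17rd and Spry2, and 1 higher, the receptor gene Fgfr3 (0.50, adjusted p = 0.018).

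Other feedback genes had low values with a wide error. Spry4 had levels of 2107 and 1357 and Dusp6, a phosphatase that switches off the kinase ERK, 7537 and 5505. Their SE was 3.12 and 3.64 times that of genes of like mean, and neither was called in the authors' deposited table (adjusted p = 0.0816 and 0.194). Fgf10, the mesenchymal ligand, had levels of 1567 and 1367 and was not called.

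Ligands and regulators of the apical ridge itself fell in 2 of 13 tested cases, beside 7.89% of all genes, with a median of -0.33. Dlx2, a homeobox gene, fell from 459 to 274 (log2 change -0.75, SE 0.186, adjusted p = 0.00234) and Sp8, a zinc finger gene needed for ridge Fgf8, from 559 to 358 (-0.64, SE 0.183, adjusted p = 0.00928), both as in the authors' deposited table. Both stayed called once GC-adjusted (adjusted p = 0.0476 and 0.0249). Fgf8, the main ridge ligand, had levels of 303 and 132, the lowest log2 change among the 13 tested, but its SE of 0.609 was 3.50 times that of genes of like mean and it was not called in the authors' deposited table (adjusted p = 0.188). Trp63, which marks all surface ectoderm, had levels of 1669 and 1523. In a tissue sample, fewer ridge cells and less RNA per ridge cell cannot be told apart.

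Surface ectoderm markers were called lower as well. Of 23 tested, 7 fell, beside 7.89% of all genes, and 22 had a negative log2 change. The other, the keratin gene Krt15, had levels of 148 and 254 (authors' deposited table: log2 change 0.77, SE 0.305, adjusted p = 0.0757). The summed level of all 26 was 30005 in Inv1 and 25514 in Inv1DelCTCF, with no member at 0. Krt5, the basal keratin, fell from 4450 to 3603, Cdh1, the epithelial cadherin, from 1465 to 1115, and Krt8, a simple-epithelium keratin, from 430.2 to 257. GC-adjusted, 2 were called lower, Cldn6 (-0.44, adjusted p = 0.0311) and Cdh1 (-0.36, adjusted p = 0.0418). The part of the ectoderm share in the ridge and FGF results was not tested.

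Wnt pathway genes fell in 10 of 33 tested cases and rose in none, with a median of -0.14, beside 7.89% and 3.81% of all genes. Lef1, Tcf7 and Tcf7l1, which carry the signal to DNA, fell from 2134 to 1729, from 1357 to 952 and from 4231 to 3144. The receptor genes Fzd10, Fzd1, Lrp5 and Ror2 fell as well, Fzd10 from 2617 to 1861 (authors' deposited table: log2 change -0.49, SE 0.0905, adjusted p = 1.21e-05). The feedback genes Axin2 and Znrf3 fell from 3635 to 3067 and from 1272 to 1035, and Wnt5a, the ligand of distal outgrowth, from 13423 to 12051, just inside the threshold (authors' deposited table: adjusted p = 0.0498). GC-adjusted, 4 were called, Lef1, Tcf7, Tcf7l1 and Fzd10.

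Hedgehog genes fell in 3 of 14 tested cases, beside 7.89% of all genes, with a median of -0.13. Among them Ptch1, a receptor and direct target, fell from 5908 to 4708, and the transducer Smo from 9960 to 8629. GC-adjusted, Ptch1 was called (-0.31, adjusted p = 0.0409). Gli1, a common readout of the pathway, had levels of 3119 and 2624 and was not called (authors' deposited table: adjusted p = 0.14). The ligand Shh had levels of 136 and 34.3, an unadjusted p of 0.00712 and an SE of 0.738 in the authors' deposited table, which adjusts no gene of so low a mean. Grem1, which links hedgehog to the ridge, had levels of 929 and 499 with an SE 3.73 times that of genes of like mean, and was not called.

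Genes of bone morphogenetic protein (BMP) signalling were called in both directions, with 2 of 23 tested higher and 4 lower and a median of 0.02, beside 3.81% and 7.89% of all genes. Nog, which encodes the antagonist noggin, rose from 87.8 to 169 (authors' deposited table: log2 change 0.94, SE 0.312, adjusted p = 0.0296) and stayed called once GC-adjusted. Id4, an inhibitor of differentiation, rose from 229.5 to 332. The ligand genes Bmp4 and Bmp7 fell from 2368 to 1745 and from 3538 to 2936, and the targets Id1 and Smad7 from 3249 to 2491 and from 1267 to 1029. None of these 4 was called once GC-adjusted. Msx1, a distal target gene, had levels of 639.9 and 322 and an SE 3.40 times that of genes of like mean, and was not called.

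Retinoic acid genes fell in 2 of 16 tested cases, beside 7.89% of all genes, with a median of -0.04. Cyp26b1, the enzyme that clears retinoic acid from the distal limb, fell from 14971 to 11181 (log2 change -0.42, SE 0.107, adjusted p = 0.00287) and Crabp1, a retinoic acid binding protein gene, from 2611 to 2063 (adjusted p = 0.0346), values of the authors' deposited table. Neither was called once GC-adjusted. Meis1, which marks proximal limb, had levels of 399 and 383.

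Among Hox genes 1 of 17 tested rose and 2 fell, beside 3.81% and 7.89% of all genes, with a median of -0.09, and 22 of 39 were not tested. Hoxa13 and Hoxd12, distal members, fell from 1480 to 1202 and from 7483 to 6300, and Hoxa9, a more proximal member, rose from 4787 to 5556. All 3 lost their call once GC-adjusted, and Hoxd11 (-0.36, adjusted p = 0.0125) gained one. Other patterning factors rose in 1 and fell in 5 of 26 tested cases, beside 3.81% and 7.89% of all genes, with a median of -0.14. Sall4, a zinc finger regulator of limb outgrowth, fell from 816 to 454 (authors' deposited table: log2 change -0.85, SE 0.182, adjusted p = 2.99e-04) and was the 1 member still called once GC-adjusted. The dorsal factor Lmx1b fell from 1362 to 1007, Lhx2 from 3458 to 2610, Tbx2 from 1712 to 1358 and Tfap2c from 428 to 264, while Shox2, a proximal limb factor, rose from 4806 to 5785.

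Genes of developmental timing fell in 5 of 14 tested cases and rose in none, beside 7.89% and 3.81% of all genes, with a median of -0.11. These genes surround the RNA-binding protein Lin28 and the let-7 microRNAs, which set the pace from early to later programmes. Trim71, a let-7 target that keeps cells immature, fell from 586 to 285, which is 0.487 of the Inv1 level (95% interval from 0.367 to 0.645), and this was the lowest log2 change of all called genes. Igf2bp1, an mRNA-binding protein gene, fell from 15006 to 9969 (authors' deposited table: log2 change -0.59, SE 0.0776, adjusted p = 4.57e-11) and Mycn from 3399 to 2241. These 3 stayed called once GC-adjusted, and Arid3a and Arid3b did not. Lin28b, at 1843 and 1585, and Hmga2, at 20087 and 19446, were not called.

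**Figure D4:**
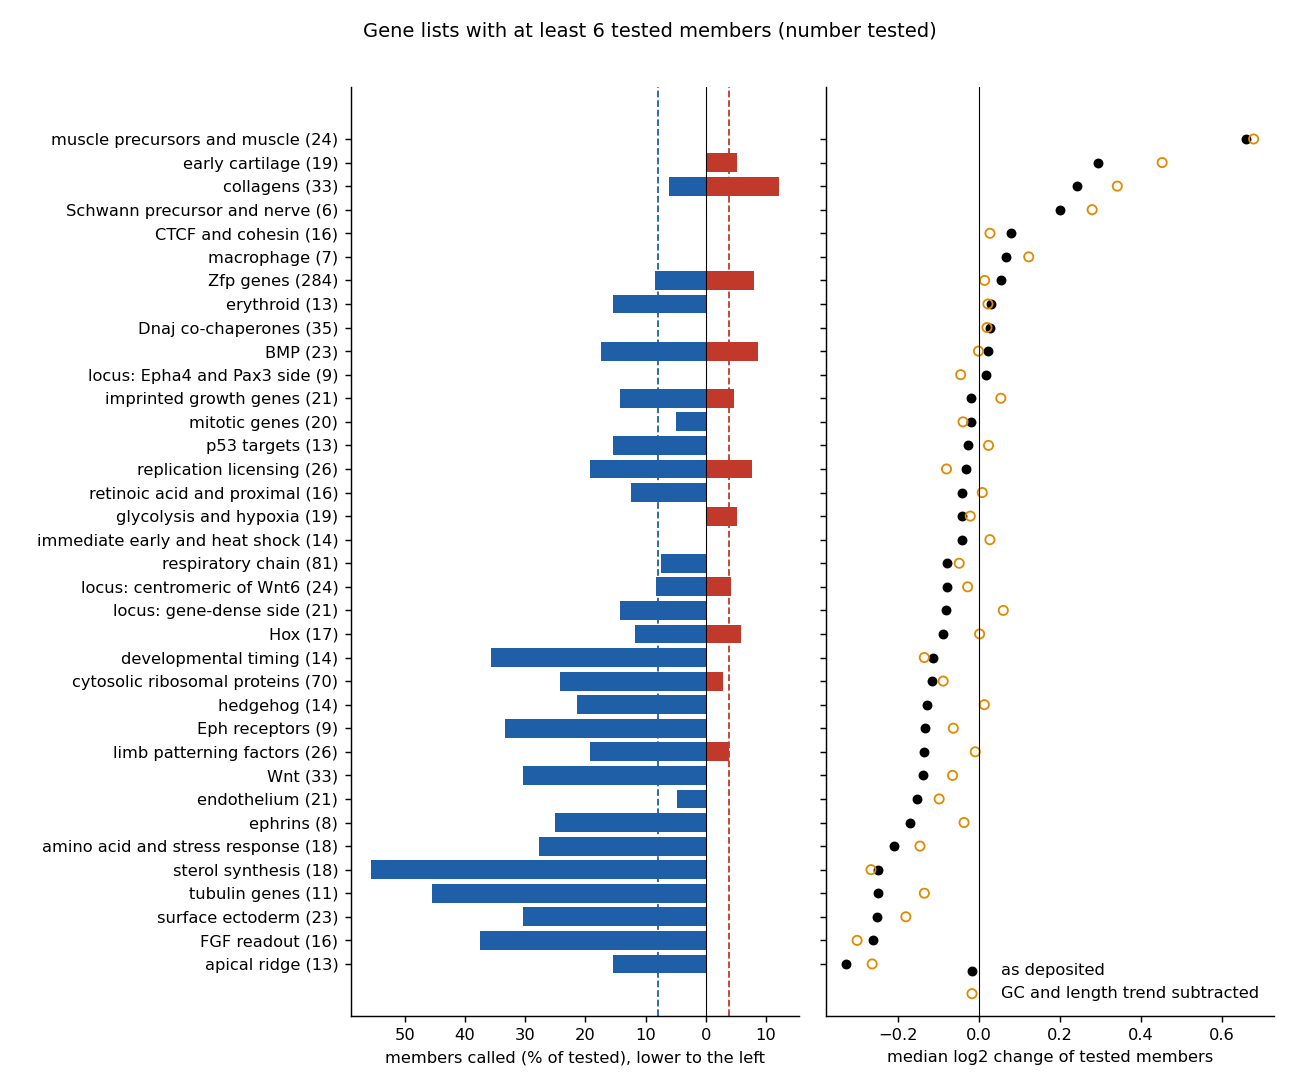
Left bars give the percentage of tested members called higher (red, to the right) or lower (blue, to the left) for lists with at least 6 tested members, and dashed lines the 3.81% and 7.89% of all tested genes. Right points give each list's median log2 change as deposited (black) and GC-adjusted (orange rings), from the apical ridge at -0.33 to muscle at 0.66.

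Collagen genes were called in both directions, with more higher than lower. Of 33 tested collagen genes, 4 rose and 2 fell, beside 3.81% and 7.89% of all genes. A log2 change above 0 was held by 27 of the tested collagen genes (median 0.24). Col5a2 and Col12a1, of fibril-forming and fibril-associated collagens, rose from 4455 to 5534 and from 2116 to 3308, Col6a3 of the beaded filaments from 1179 to 1801 (authors' deposited table: log2 change 0.61, SE 0.15, adjusted p = 0.00187), and Col11a1 of cartilage from 2861 to 3889. The basement membrane genes Col4a1 and Col18a1 fell from 14933 to 12947 and from 8882 to 6978. GC-adjusted, 9 collagen genes were called higher and none lower, and Col12a1 (adjusted p = 0.0533), Col4a1 and Col18a1 lost their call.

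Early cartilage and muscle genes had high values with a wide error. In the cartilage list 16 of 19 tested genes had a log2 change above 0 (median 0.29), yet only Col11a1 was called higher, beside 3.81% of all genes. Acan, the aggrecan gene, had levels of 162 and 481 and Matn4 524 and 1141, and their SE was 4.29 and 4.70 times that of genes of like mean (authors' deposited table: adjusted p = 0.115 and 0.122). In the muscle list 22 of 24 tested genes had a log2 change above 0 (median 0.66), and none was called by the authors' Wald test. The list held 2 genes at an unadjusted p under 0.05, beside 2928 of all 11218 tested genes. Its summed level was 21020 in Inv1 and 30752 in Inv1DelCTCF, with 1 of 28 members at 0, and its median SE was 3.45 times that of genes of like mean. Myh3, the embryonic myosin, had levels of 1711 and 3684 with an SE of 0.612 in the authors' deposited table. The muscle precursor genes Pax7 and Lbx1 had means under the limit for an adjusted p.

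**Figure D5:**
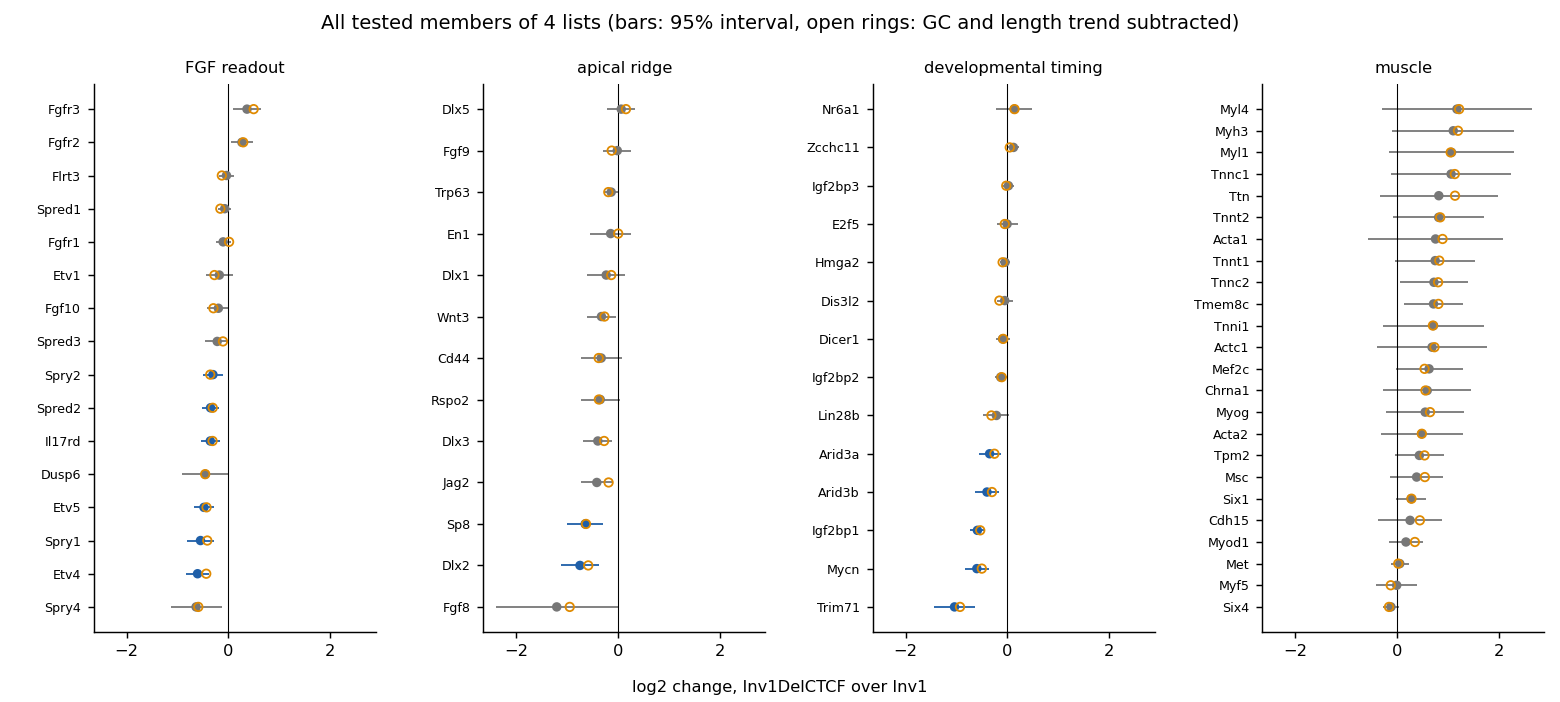
Every tested member of 4 lists with its log2 change of Inv1DelCTCF over Inv1 and 95% interval, blue where called lower and grey where not called. Orange rings are GC-adjusted values, and the intervals of the muscle genes are wider than most of those of the FGF readout genes.

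The highest called gene of the table also belongs to muscle. Mybpc1, which encodes slow myosin-binding protein C, rose from 348 to 835, or 2.40-fold (95% interval from 1.84 to 3.12), while the muscle list, which it is not part of, held no call. Chrnb1, a subunit of the muscle acetylcholine receptor, rose from 227 to 389. Egfl6, a matrix protein gene, rose from 237 to 501, Cthrc1, a secreted collagen-associated protein gene, from 193 to 332, Gria2, a glutamate receptor subunit, from 189.7 to 367, and Rxrg, a retinoid receptor, from 87.4 to 165. Nog, described above, and Far2, Cdh29, Dner, Hmg1l1, Snora81, Rpl14-ps1, AF357425_gene and Mpeg1 complete the 15 highest, with log2 changes from 0.77 to 1.14 in the authors' deposited table. Mpeg1 is a macrophage gene, and among 7 tested macrophage markers none was called, with a summed list level of 2375 and 2779. In the authors' Wald test 1 of these markers had an unadjusted p under 0.05, beside 2928 of all 11218 tested genes. GC-adjusted, 1 of the markers was called higher, Csf1r, the receptor that macrophages need (0.52, adjusted p = 0.0439).

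The lowest called genes included several regulators of early development. Beside Trim71, Sall4 and Ptprn, Bhlha9, a basic helix-loop-helix gene of the ridge, fell from 304 to 154, Msi2, an RNA-binding protein gene of progenitors, from 299.9 to 174, and the homeobox genes Evx1 and Evx2, neighbours of the HoxA and HoxD clusters, from 445 to 265 and from 254 to 149. H1fx, a linker histone gene, fell from 1204 to 619, Mif, a cytokine gene with many pseudogene copies, from 691 to 373, and St14, an epithelial membrane protease, from 537 to 319. Ier5l, Padi3, Mogat2, Tmem160 and AK145489_gene complete the 15 lowest, with log2 changes from -0.98 to -0.76 in the authors' deposited table. GC-adjusted, H1fx, Evx1, Evx2, Ier5l and Tmem160 were no longer called, and Bhlha9, Msi2, Mif, St14, Padi3 and Mogat2 were.

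Among the genes that rose with the smallest adjusted p-values, Rbmx, an RNA-binding protein gene of splicing, went from 1987 to 2831, Prpf39, a splicing factor gene, from 3125 to 4247, and Eif4a2, a translation helicase gene, from 12141 to 17156 (authors' deposited table: log2 change 0.50, SE 0.0541, adjusted p = 6.45e-17). Ttc14 rose from 3531 to 5012, and all 4 stayed called once GC-adjusted. Cytb, the mitochondrially encoded cytochrome b, rose from 65076 to 96362, Cox2 from 77637 to 107205, and mt-Nd4, a subunit of complex I, from 64079 to 88312, which lost its call once GC-adjusted (adjusted p = 0.0635). AK141672_gene, with the smallest p-value of the table, and DQ539915_gene are named by cDNA accession, and Hnrnpa1_copy3 is 1 of several loci of its gene. They rose too, and no GC-adjusted value was made for them, for Cytb or for Cox2.

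Among the genes that fell with the smallest adjusted p-values, Actb, the cytoplasmic actin, went from 76484 to 52274 (log2 change -0.55, SE 0.0548, adjusted p = 5.11e-20) and Dpysl2, a regulator of microtubules, from 3683 to 2289 (-0.69, SE 0.0672, adjusted p = 9.13e-21), values of the authors' deposited table. Kmt2d, a histone methyltransferase gene, fell from 5211 to 3715, Hipk2, a nuclear kinase, from 1801 to 1095, and Nucks1, a chromatin protein, from 21856 to 15950. Ago2, the core of the microRNA silencing complex, fell from 6483 to 4845, and Pvrl1, the adhesion protein nectin, from 1152 to 761. All 7 stayed called once GC-adjusted.

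Among the lists with at least 6 tested members, sterol synthesis had the largest share called. Of 18 tested genes, 10 fell and none rose, beside 7.89% and 3.81% of all genes. A negative log2 change was held by 17 of the 18, and the summed level went from 75442 to 60931. Dhcr7, which catalyses a late step to cholesterol, fell from 2026 to 1569 (authors' deposited table: log2 change -0.37, SE 0.0886, adjusted p = 0.00147). Srebf2, the transcription factor of the pathway, fell from 10663 to 7847 (authors' deposited table: log2 change -0.44, SE 0.0816, adjusted p = 1.24e-05). Fdps, an enzyme of isoprenoid synthesis, fell from 5376 to 4267, Lss, which closes the sterol rings, from 2636 to 2093, and Fdft1, Mvd, Mvk and Cyp51 also fell. GC-adjusted, 9 of the list were called lower, and the median went from -0.25 to -0.27.

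Smaller shares were called in other metabolic and housekeeping lists, to be read beside 7.89% lower and 3.81% higher of all genes. Amino acid and stress response genes, many of them targets of the factor Atf4, fell in 5 of 18 tested cases, among them Phgdh, the first enzyme of serine synthesis, from 4659 to 3644, and none was called once GC-adjusted. Cytosolic ribosomal protein genes fell in 17 of 70 tested cases and rose in 2, with a median of -0.12. Rpl37 fell from 1354 to 993 and Rpl10 from 6861 to 5544, while Rpl35a rose from 1372 to 1782, and GC-adjusted 8 were called lower and 2 higher. Many of these genes have near-identical pseudogenes, so single values are uncertain. Nuclear respiratory chain genes fell in 6 of 81 tested cases, a share near that of all genes, led by Atp5d, from 3601 to 2565. GC-adjusted, 1 of them was called, and Atp5d was not (adjusted p = 0.121). Glycolysis and hypoxia genes held 1 call of 19 tested, Gapdh, from 3090 to 3842, a gene with many pseudogenes. Others of that list had a wide error in either direction. Ldha had levels of 34214 and 27392 and Vegfa 2844 and 3135, with an SE 3.90 and 3.74 times that of genes of like mean. Among 14 tested immediate early and heat shock genes none was called, with 3 at an unadjusted p under 0.05.

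Origin licensing genes fell in 5 of 26 tested cases, beside 7.89% of all genes and with a median of -0.03, with Mcm2, Mcm3, Mcm5 and Mcm7 of the replicative helicase and Gins2 among them, and rose in 2, beside 3.81% of all genes, Cdc7 from 2586 to 3303 and Orc4 from 1966 to 2436. GC-adjusted, only Cdc7 was called. Of 77 clustered histone genes 1 had an adjusted p, and it was not called. Of 20 tested mitotic genes, 1 fell, beside 7.89% of all genes. It was Plk1, a mitotic kinase, from 4954 to 4230 (authors' deposited table: adjusted p = 0.0492), and Mki67 had levels of 21637 and 23397. Of 13 tested p53 targets 2 fell, beside 7.89% of all genes. Zmat3, an RNA-binding protein gene, fell from 1748 to 1219. The cell death gene Bax fell from 1926 to 1623, and GC-adjusted it stood at 0.02, the opposite sign. Imprinted growth genes rose in 1 of 21 and fell in 3 tested cases, beside 11.7% of all genes called, with a median of -0.02, and GC-adjusted 1 was called in each direction. Plagl1, a regulator of the imprinted network, rose from 3286 to 4911 (authors' deposited table: log2 change 0.58, SE 0.12, adjusted p = 1.52e-04), and Igf2, Grb10 and Peg10 fell, Igf2 from 309265 to 277765.

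Zinc finger genes named Zfp were called in both directions. Of 284 tested, 23 rose and 24 fell, beside 3.81% and 7.89% of all genes, so the share that fell was near that of the genome. GC-adjusted, 4 were called higher and 5 lower. Zfp462 and Zfp423, regulators of development, fell from 6228 to 5013 and from 4178 to 3125, and Zfp101 rose from 1459 to 1837. These 3 stayed called once GC-adjusted.

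Markers of the remaining cell types were counted in the same way. Of 21 tested endothelial genes 1 fell, beside 7.89% of all genes, namely Cdh5, the vascular cadherin, from 2658 to 2251. The summed level of the list was 20287 and 18421, with no member at 0. Cdh5 was not called once GC-adjusted (adjusted p = 0.188). Of 13 tested erythroid genes 2 fell, beside 7.89% of all genes. These were the embryonic globin genes Hba-x, from 31048 to 22867, and Hbb-bh1, from 11577 to 9512. Hbb-y, another embryonic globin, had levels of 43077 and 48034, and 4 of the 20 listed were at 0. None of 6 tested Schwann precursor and nerve genes was called by the authors' Wald test, and the summed level of the list was 3517 and 3982. An unadjusted p under 0.05 was held by 2, beside 2928 of all 11218 tested genes. The part of these cell types in other results was not tested. Xist, which marks female cells, had levels of 13.0 and 17.3, and the Y-linked gene Uty 105 and 207 with an SE of 1.53, 6.98 times that of genes of like mean, so the mix of sexes in each group is unknown.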

How the data were processed

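RNA from distal forelimbs of E11.5 mouse embryos was sequenced on Illumina libraries. Of tools and builds, the aligner STAR, DESeq2 and mm9 are listed in the submitters' processing notes, and versions are not given in the sources used here. The authors deposited 1 table per comparison, holding for each gene a signal (the mean normalised count over both groups), a log2 fold change with its SE, a Wald statistic (a score) and a raw and an adjusted p-value, per the file headers. No counts per library were used here. The authors' adjusted p-values equal a Benjamini-Hochberg adjustment over the 11218 rows that have one, all with a mean of at least 113. A gene was called at an adjusted p under 0.05, from the authors' DESeq2 Wald test on 3 and 2 libraries.

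From these values, group levels were rebuilt, the sign was settled against the tables of the joint fit of 18 libraries with wild type, and a weighted cubic trend with transcript GC content and log2 length was subtracted, with normal p-values from the deposited SE and 95% intervals likewise. Promoters came from RefSeq of GRCm38.p6, matched by symbol, since mm9 sequence was not used here. For GC content and length, each symbol was matched to GENCODE mouse transcripts. Where several shared a symbol, that with the most bases was used. Scripts were tested on simulated data and ran in Python 3.11.15 with matplotlib 3.10.9, SciPy 1.17.1, numpy 2.4.6 and pandas 2.3.3.

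Named genes were, by rule, all called locus genes and 10 listed neighbours, the 15 highest and 15 lowest called genes with a mean of at least 20, the 10 smallest adjusted p-values in each direction, and in each list up to 5 members with the smallest adjusted p and up to 2 with the highest mean. Other list members are named for their known role, after their values were seen, and some genes that meet the rule are not reported here. The members and lists were chosen with earlier results of these data known. Alternatives were other thresholds, other adjustments, a minimum mean, a minimum change, centring, and the trend.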

Additional observations from a re-analysis of the deposited data

How the results depend on the processing

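At an adjusted p under 0.01, 179 genes were higher and 397 lower, and under 0.1, 682 and 1272. A minimum log2 change of 0.5 left 84 and 90. Subtraction of the GC and length trend gave 195 and 217, and of the median of each of 10 GC bins, an alternative chosen after seeing the data, 199 and 238. Adjustment over every row with a p-value gave 301 and 621, centring on the median 499 and 737, and a mean of at least 50 gave 415 and 848, all within 1.5 times the main counts. The share of calls that were lower went from 67.5% to 52.7% with the trend subtracted and 59.6% with centring. At the locus, with 1 higher and 5 lower in the main result, the trend gave 3 higher and 2 lower, the GC bins 2 and 4, and the 0.01 threshold 1 and 3. Summed over all lists, the counts of higher members, 40 in the main result, were 23 at 0.01, 73 at 0.1 and 24 with either composition correction, and of lower members, 139, were 67 at 0.01, 49 with the trend and 52 with the GC bins. The composition corrections change the fold changes themselves, and the cause of the trend was not tested.

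Of 268 named genes 151 were called, and of the 144 of these with a known composition 72 were called with the trend subtracted. Of the 151, 140 were called with centring and 127 with adjustment over every row. Signs turned with the trend, to small values, for Atp5g2 (0.0803), Bax (0.0234), Bmpr1a (-0.0566), Dnaja2 (-0.0167), Dnajb1 (0.0139), Efnb3 (0.0631), Ephb3 (0.0105), Fgfr1 (0.0134), Laptm5 (0.0569), Ldb1 (0.0421), Maz (0.106), Pbx2 (0.0106), Prrx1 (-0.0196), Rab3a (0.0476), Rad21 (-0.0228), Smad5 (-0.0228), Syt7 (0.0531), Top2a (-0.0282), Tubb3 (0.0196) and Zfp207 (-0.00114), and with centring for Zfp664 (0.000131). The sign of the comparison stayed as used with 57 genes (median absolute residual 0.0165) and 67 genes (0.0199).

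No paired analysis was possible because the tables hold no value per library, and for the same reason the replicate block and leaving out each library in turn were not run. With 2 libraries of Inv1DelCTCF, a wide SE cannot be traced to a library here, and genes with a mean under 113 have no adjusted p.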

Other observations

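Among genes too low for an adjusted p, 2850 had a mean of at least 20, and 202 of these had an unadjusted p under 0.05 and 9 under 0.001 in the authors' deposited table. Several of those named here have roles in matrix, muscle and immediate response. Mgp, which encodes matrix Gla protein, an inhibitor of calcification, had levels of 49.1 in Inv1 and 119 in Inv1DelCTCF (unadjusted p = 2.38e-05 in the authors' deposited table). Myom2, a sarcomere gene, had levels of 30.7 and 83.9, and Capn3, a muscle protease gene, 28.2 and 70.3. Junb, an immediate early transcription factor gene, had levels of 91.4 and 37.9, and Ctss, a lysosomal protease of macrophages, 48.9 and 98.9. These genes were chosen after their values were seen.

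Afp, the alpha-fetoprotein gene of yolk sac and liver, had rebuilt levels of 396 in Inv1 and 5.51 in Inv1DelCTCF, with an SE of 2.39 and neither a p-value nor an adjusted p in the authors' deposited table. Which library carries its reads cannot be seen.

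Above a mean of 500, the genes with the widest SE for their mean included muscle and tendon-related matrix genes. Actc1, the cardiac actin of early muscle, had levels of 3066 and 4945 with an SE 7.98 times that of genes of like mean. Tnc, the matrix protein tenascin C, had levels of 1233 and 2165, and Kera, the proteoglycan keratocan, 476.9 and 834. Sall3, a relative of Sall4, had levels of 1783 and 1107, and Slc16a3, a lactate transporter gene, 2054 and 1282. None of these 5 was called.

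The shares called also differed by chromosome and by level. On the X chromosome 7.71% of tested genes rose and 1.99% fell, with a median GC content of 45.5%, and on chromosome 15 2.12% rose and 12.7% fell, with a median GC content of 52.7%. Over 5 bins by mean, 1.65% fell in the lowest and 17.5% in the highest. Of the 1312 called rows, 29 are named by cDNA accession or as a copy of a gene, so their identity is uncertain.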
